A study of Mus musculus with 32 samples.

Results

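The expression of 40 genes of apoptosis and the p53 pathway was followed in cultured mouse cortical neurons exposed to extracellular oligoribonucleotides. The genes were chosen by name, with earlier results of these data known. By Ensembl identifier, 40 of 40 were found among the 49671 genes of the count table. They comprise 22 pro-apoptotic genes, 8 anti-apoptotic genes, and 10 other genes of inflammatory or necroptotic cell death and the p53 pathway, and the 3 groups are described apart. Primary neurons were prepared from forebrains of late embryonic wild-type C57BL/6 mice and were either left untreated or incubated with 1 of 3 molecules for 6 h or 5 d. These were miR-92a-1-5p, then miR-124-5p, and last Mut.oligo, a mutated let-7b oligoribonucleotide used as sequence control, and groups of 3 values are given in that order. The oligoribonucleotides were added to the medium at the same concentration, and all carried a 5′ phosphate and phosphorothioate bonds. RNA-seq was performed on 4 libraries per condition and time point, 32 libraries in all, and the labels call them biological replicates without tying them to single litters. Conditions are those of the sample labels, whose characteristics give every oligoribonucleotide as one term, so the names rest on titles and descriptions. No measured value here checks which libraries received which molecule, an exchange of the names miR-124-5p and Mut.oligo was not tested, and values of both hold only as labelled. The comparisons ask whether neurons exposed to these molecules change the RNA of genes that run cell death.

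Apoptosis through mitochondria is decided within the BCL2 family. BH3-only proteins such as Hrk, Bbc3 (PUMA), Bcl2l11 (BIM), and Bmf sense stress and release or activate the pore formers Bax and Bak1, while Bcl2, Bcl2l1 (BCL-XL), Bcl2l2, and Mcl1 hold them in check. Cytochrome c (Cycs) then leaves mitochondria and, with Apaf1, activates caspase-9, whereas the death receptor Fas works through Fadd and caspase-8. The transcription factor p53 (Trp53) is held low by Mdm2 and switches on genes including Bbc3, Pmaip1, Fas, Ccng1, and Sesn2, and in developing neurons Hrk and Bcl2l11 are known for their induction upon withdrawal of survival factors. RNA levels say nothing of protein release, cleavage, or phosphorylation, through which much of this pathway is run.

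The mature sequence of mouse miR-92a-1-5p was taken from RefSeq (build GRCm38.p6, chr14:115044437-115044459, plus strand, gene Mir92-1). Since the seed (bases 2 to 8, in capitals) is the part of a miRNA that pairs with messenger RNAs, it is shown beside let-7b-5p (chr15:85707325-85707346, plus strand), the miRNA from which Mut.oligo was derived by mutation. 
mmu-miR-92a-1-5p: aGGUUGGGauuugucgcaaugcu
mmu-let-7b-5p: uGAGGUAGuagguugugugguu
The motif complementary to the miR-92a-1-5p seed, CCCAACC, was sought in the sense strand of the 3′ UTRs of the 40 genes. It occurred 9 times, in 6 of 40 genes (15.0%), against 1883 of 20836 genes in all (9.04%), with a median UTR length of 1501 bases in the 40 genes and 962 bases in all. Hrk held 3 of these motifs, Bak1 held 2, and Bik, Diablo, Mcl1, and Sesn2 held 1 each. The sequences of miR-124-5p and Mut.oligo were not used here.

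Libraries held 24514090 to 73626029 counts (median 43798676.5), so that 3 counts correspond to 0.0407 to 0.122 CPM, counts scaled to the total of the library. Neuronal markers were at 0 in no library, and their summed level had a median of 5198 CPM at 6 h and 4850 CPM at 5 d. Summed markers of astrocytes were at 221 to 623 CPM at 6 h (median 397) and 1009 to 2087 CPM at 5 d (median 1289), and those of dividing cells were at 123 to 358 CPM (median 215) and 28.8 to 81.7 CPM (median 53.7). In these bulk samples, fewer cells of a type and less RNA per cell cannot be told apart. The 6 h libraries came from 7 experiment batches and the 5 d libraries from 6, with 0 batches in common, so that time of exposure, age of the culture, and batch cannot be told apart. At 5 d, replicate 1 labelled miR-124-5p and untreated replicate 2 stood apart in several of the 40 genes, and results on those groups were also computed without them. Replicate 1 labelled miR-124-5p had the lowest neuronal marker sum (3991 CPM) and the highest microglial sum (24.4 CPM) of all 5 d libraries.

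Compared per kilobase of exon, the anti-apoptotic gene Mcl1 had the highest level of the 40 genes at 6 h, with a median of 45.4 CPM per kilobase over 16 libraries. It was followed by Bax (33.4), Bcl2l1 (29.6), Bok (20.01), and Ccng1 (19.8). At 5 d the order began with Ccng1 (41.8), Mcl1 (35.01), Hrk (32.4), Sesn2 (31.4), and Bax (23.9). The lowest Ccng1 library (36.4) lay above the highest Mcl1 library (36.1), whereas the ranges of Mcl1, Hrk, Sesn2, and Bax overlapped. At 6 h, the ranges of Bax and Bcl2l1 met and those of Bok and Ccng1 overlapped. The BH3-only gene Bik was the lowest, at 0 to 0.0767 CPM at 6 h, and neither Bik nor, at 5 d, the necroptosis effector Mlkl passed the filter on low counts. Bik stays below or near the level of 3 counts, so that differences in it were not detectable at this depth, and values of Mlkl, at 0 to 0.245 CPM at 6 h, rest on few counts. Exons of Bax, Diablo, Bcl2l2, and Ripk1 overlap another gene on the same strand over 192 to 1193 bases, which makes their counts less certain.

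None of the 40 genes passed the test against untreated neurons. With edgeR's quasi-likelihood test (called at a Benjamini-Hochberg adjusted p below 0.05 with an absolute log2 fold change of more than 0.5), 0 of 39 genes tested at 6 h and 0 of 38 at 5 d were called for any of the 3 oligoribonucleotides. The share of all tested genes called was 0% in each of these comparisons except miR-92a-1-5p at 5 d, where it was 0.00517%. At an unadjusted p under 0.05, the 6 h comparisons gave 0 genes for miR-92a-1-5p (4.75% of all genes), 1 lower for miR-124-5p (4.54%), and 1 lower for Mut.oligo (9.49%). The 5 d comparisons gave 1 higher and 1 lower for miR-92a-1-5p (3.63%), 0 for miR-124-5p (2.6%), and 1 higher and 1 lower for Mut.oligo (2.79%). DESeq2 without batch also called 0. Including the experiment batch as a covariate in edgeR likewise gave 0 calls, where the shares of all genes called were 0.208%, 0%, and 0.0213% at 6 h and 0.352%, 0.0259%, and 0.0466% at 5 d.

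For most genes the intervals limit how large a change could be. The 95% interval of the log2 fold change lay within 0.5 of 0 for 31, 30, and 31 of 39 genes at 6 h and for 30, 31, and 29 of 38 genes at 5 d. Intervals reached past 0.5 in all 6 comparisons for the low genes Fas, Casp8, Casp4, Birc3, and Ripk3 and for Pmaip1 (NOXA). The median log2 fold change of the pro-apoptotic genes was -0.01, -0.01, and -0.02 at 6 h and -0.01, 0.05, and 0.04 at 5 d. For the anti-apoptotic genes it was 0.01, -0.01, and -0.02 at 6 h and -0.03, -0.06, and -0.08 at 5 d, while the median over all tested genes was between -0.00 and 0.01 throughout.

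**Figure D1:**
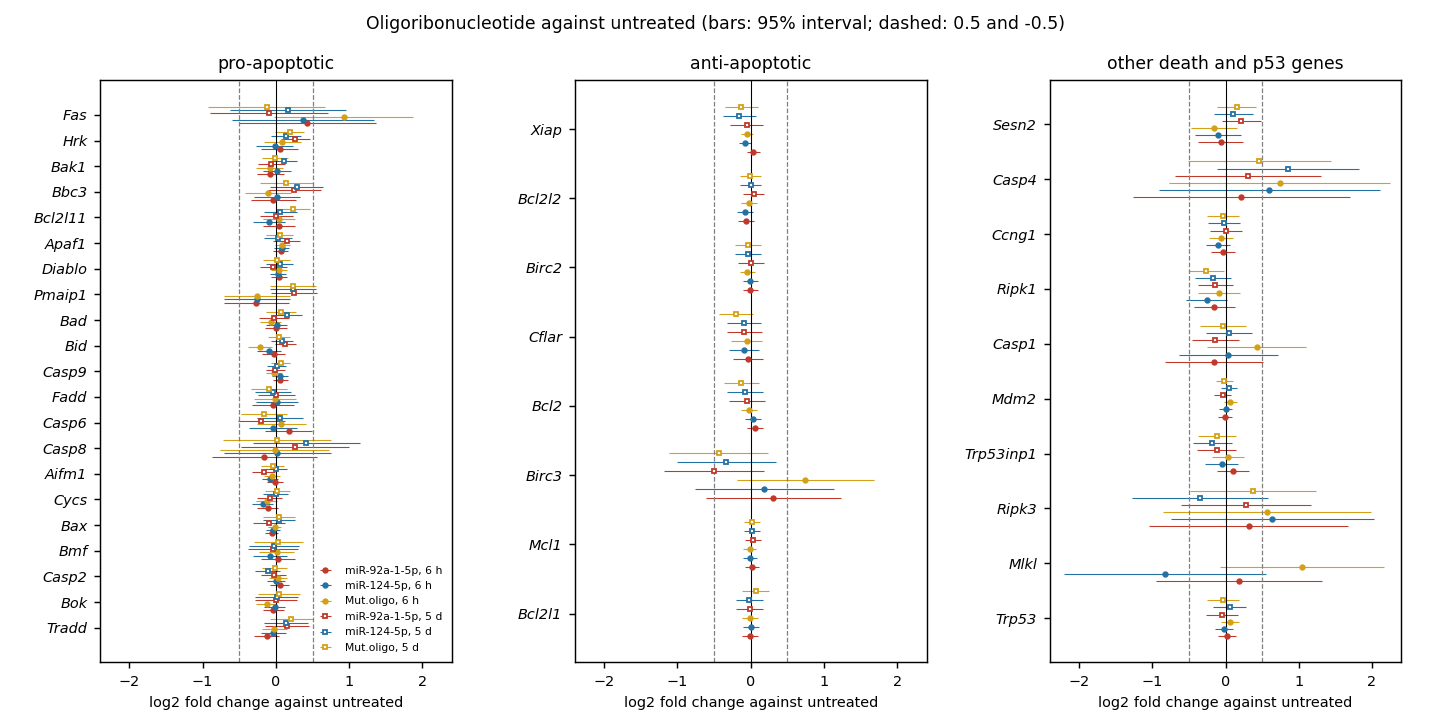
Log2 fold change against untreated (x axis) of each tested gene (y axis) in the pro-apoptotic, anti-apoptotic, and other group, with 95% intervals; colours give the oligoribonucleotide, filled circles 6 h and open squares 5 d, and dashed lines 0.5 and -0.5. Most intervals lie between the dashed lines, and those of the low genes Fas, Casp8, Casp4, Birc3, Ripk3, and, at 6 h, Mlkl reach past them.

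The 2 genes with the smallest p-values in each 6 h comparison with untreated were Cycs, an electron carrier and apoptosome trigger, and the death receptor adaptor Tradd for miR-92a-1-5p, Cycs and Xiap for miR-124-5p, and Bid and Fas for Mut.oligo. Cycs was at 56.4, 57.2, 51.7 and 53.3 CPM in untreated replicates 1 to 4, at 52.6, 45.1, 48.97 and 55.9 CPM with miR-92a-1-5p, at 48.2, 50.1, 49.6 and 44.1 CPM with miR-124-5p, and at 52.5, 48.3, 53.9 and 45.5 CPM with Mut.oligo. All 4 libraries labelled miR-124-5p lay below the untreated ones, whereas those with miR-92a-1-5p and with Mut.oligo overlapped them. The log2 fold change was -0.18 ± 0.068 (SE) for miR-124-5p (edgeR, unadjusted p = 0.0167, adjusted p = 1.00) and -0.11 ± 0.067 for miR-92a-1-5p (unadjusted p = 0.111, adjusted p = 0.999). It was -0.13 ± 0.068 for Mut.oligo (edgeR, unadjusted p = 0.0784, adjusted p = 0.585), and the 3 comparisons share the untreated libraries. Within batches, the differences in log2 CPM were -0.15 and -0.23 for miR-124-5p, 0.02, -0.33, -0.12 and -0.03 for miR-92a-1-5p, and -0.03 and -0.07 for Mut.oligo.

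Tradd was at 10.7, 11.03, 10.3 and 11.2 CPM untreated and 8.91, 10.3, 9.57 and 10.8 CPM with miR-92a-1-5p at 6 h, with overlapping groups (log2 fold change -0.13 ± 0.079, edgeR, unadjusted p = 0.125, adjusted p = 0.999). It was lower in 4 of 4 batches that hold both groups, by -0.22, -0.05, -0.23 and -0.03 on the log2 scale. Bid, which links death receptors to mitochondria, was at 25.6, 31.6, 26.4 and 28.3 CPM untreated and 25.8, 23.7, 23.00 and 23.7 CPM with Mut.oligo. The highest Mut.oligo library (25.8) lay just above the lowest untreated one (25.6) in CPM, and the groups did not overlap after TMM scaling. The log2 fold change was -0.22 ± 0.076 (edgeR, unadjusted p = 0.0108, adjusted p = 0.419), and -0.09 with the batch as a covariate (unadjusted p = 0.184).

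Fas, the receptor of Fas ligand, was low and variable at 6 h. It was at 0.431, 0.584, 0.272 and 0.848 CPM untreated and at 1.39, 0.426, 0.869 and 1.49 CPM with Mut.oligo, and the groups overlapped. Its log2 fold change of 0.92 ± 0.45 did not pass (edgeR, unadjusted p = 0.0562, adjusted p = 0.539), with within-batch differences of 0.66 and 0.93 in log2 CPM. Summed markers of mural cells and fibroblasts were highest in the same Mut.oligo replicates 1 and 4 (118 and 181 CPM, against 62.9 and 58.8 CPM in replicates 2 and 3). So were those of astrocytes (519.5 and 623 CPM, against 290 and 223 CPM), microglia, the oligodendrocyte lineage, endothelium, and dividing cells. Neuronal markers were lowest in replicates 1 and 4 (5122 and 4883 CPM, against 5304 and 5353 CPM). The part of these markers in the Fas level was not tested.

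At 5 d, Hrk had the smallest p-value of the pro-apoptotic genes. Untreated neurons held 168, 129.5, 185 and 171 CPM and neurons with miR-92a-1-5p 177, 185, 205 and 205 CPM. The 2 lower values with miR-92a-1-5p lay among or at the untreated ones in CPM, and the groups did not overlap after TMM scaling. The log2 fold change was 0.26 ± 0.095, with a 95% interval of 0.06 to 0.46 (edgeR, unadjusted p = 0.0126, adjusted p = 0.977). A covariate for the experiment batch hardly moved the estimate (0.25 ± 0.052) and the adjusted p was 0.0567. DESeq2 with the batch gave 0.25 with an adjusted p of 0.00184, past the p threshold that 1.37% of all genes passed there, but below the minimum fold. Hrk was also higher than untreated within the batches shared with the other oligoribonucleotides, by 0.16 and 0.12 in log2 CPM for miR-124-5p and 0.22, 0.23 and 0.18 for Mut.oligo, and by 0.16 and 0.27 for miR-92a-1-5p. These comparisons share the untreated libraries, of which replicate 2 was the lowest, and without that library the estimate for miR-92a-1-5p was 0.18.

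Hrk is the gene with the most miR-92a-1-5p seed motifs among the 40, and its 3 motifs in the 3′ UTR (GRCm38, plus strand, motif in capitals) are shown with 10 bases on either side.
Hrk, chr5:118186361-118186387: ccctccctcaCCCAACCagaattacgt
Hrk, chr5:118189178-118189204: aactgcttgtCCCAACCactctggagg
Hrk, chr5:118189235-118189261: tatcttctctCCCAACCctggatcctc
Of the 5 tested genes with a motif, 2 had a log2 fold change with miR-92a-1-5p below 0 at 6 h and 2 at 5 d. Their values ran from -0.08 to 0.05 at 6 h (median 0.02) and from -0.06 in Bak1 to 0.26 in Hrk at 5 d (median 0.04). A motif match is a description of the sequence and no evidence of binding.

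Aifm1, a mitochondrial flavoprotein that can enter the nucleus in dying cells, was at 21.8, 22.3, 24.6 and 21.8 CPM untreated and 19.2, 19.8, 20.1 and 20.1 CPM with miR-92a-1-5p at 5 d. All 4 values with miR-92a-1-5p lay below the untreated ones (log2 fold change -0.17 ± 0.075, edgeR, unadjusted p = 0.0402, adjusted p = 1.00), with within-batch differences of -0.11 and -0.11. Bcl2l11 was at 17.4, 18.4, 17.96 and 19.1 CPM untreated and 20.3, 21.03, 22.2 and 20.7 CPM with Mut.oligo. The Mut.oligo libraries lay above all untreated ones and, in 3 of 3 shared batches, above the untreated partner (log2 fold change 0.24 ± 0.11, edgeR, unadjusted p = 0.0383, adjusted p = 0.999). Bbc3 was at 49.4, 26.2, 48.3 and 39.8 CPM untreated and 66.1, 49.98, 42.00 and 39.9 CPM in libraries labelled miR-124-5p, with overlapping groups. Here 1 untreated library was low and replicate 1 labelled miR-124-5p was high, and the log2 fold change of 0.28 ± 0.17 (edgeR, unadjusted p = 0.118, adjusted p = 1.00) became 0.15 without the latter and 0.14 without untreated replicate 2. The 2 within-batch differences of Bbc3 were 0.03 and 0.03 in log2 CPM.

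Of the anti-apoptotic genes, Xiap, an inhibitor of caspases, had the smallest p-value, with libraries labelled miR-124-5p at 6 h. It was at 81.2, 86.6, 82.01 and 85.5 CPM untreated and 76.4, 79.01, 78.4 and 81.8 CPM with miR-124-5p. In CPM the groups met, with replicate 4 labelled miR-124-5p above the lowest untreated library, and after TMM scaling they did not overlap. The log2 fold change was -0.08 ± 0.039 (edgeR, unadjusted p = 0.0600, adjusted p = 1.00), and the 2 within-batch differences were -0.17 and -0.00. For the highest anti-apoptotic genes the data limit any difference tightly, as all 95% intervals of Bcl2l1 and Mcl1 lay within 0.5 of 0 in the 6 comparisons. Birc3, an inhibitor of apoptosis induced by inflammatory signals, was at 0.260 to 2.01 CPM at 6 h over 16 libraries and had the largest absolute estimates of this group, from -0.50 with miR-92a-1-5p at 5 d to 0.75 with Mut.oligo at 6 h, none of which passed.

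Among the other genes, the kinase Ripk1, which relays death receptor signals to survival or necroptosis, was at 7.70, 5.43, 8.70 and 7.34 CPM untreated and 6.33, 4.91, 5.99 and 6.54 CPM with Mut.oligo at 5 d. The groups overlapped, and the log2 fold change of -0.26 ± 0.12 (edgeR, unadjusted p = 0.0379, adjusted p = 0.999) went with lower values in 3 of 3 shared batches (-0.26, -0.12 and -0.19). Casp4, the inflammatory caspase that senses bacterial lipopolysaccharide, was at 0.437, 0.221, 0.391 and 0.892 CPM untreated and 0.726, 0.918, 1.148 and 0.748 CPM in libraries labelled miR-124-5p. Its groups overlapped, the log2 fold change was 0.86 ± 0.46 (edgeR, unadjusted p = 0.0788, adjusted p = 1.00), and the 2 within-batch differences had opposite signs (1.02 and -0.22).

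**Figure D2:**
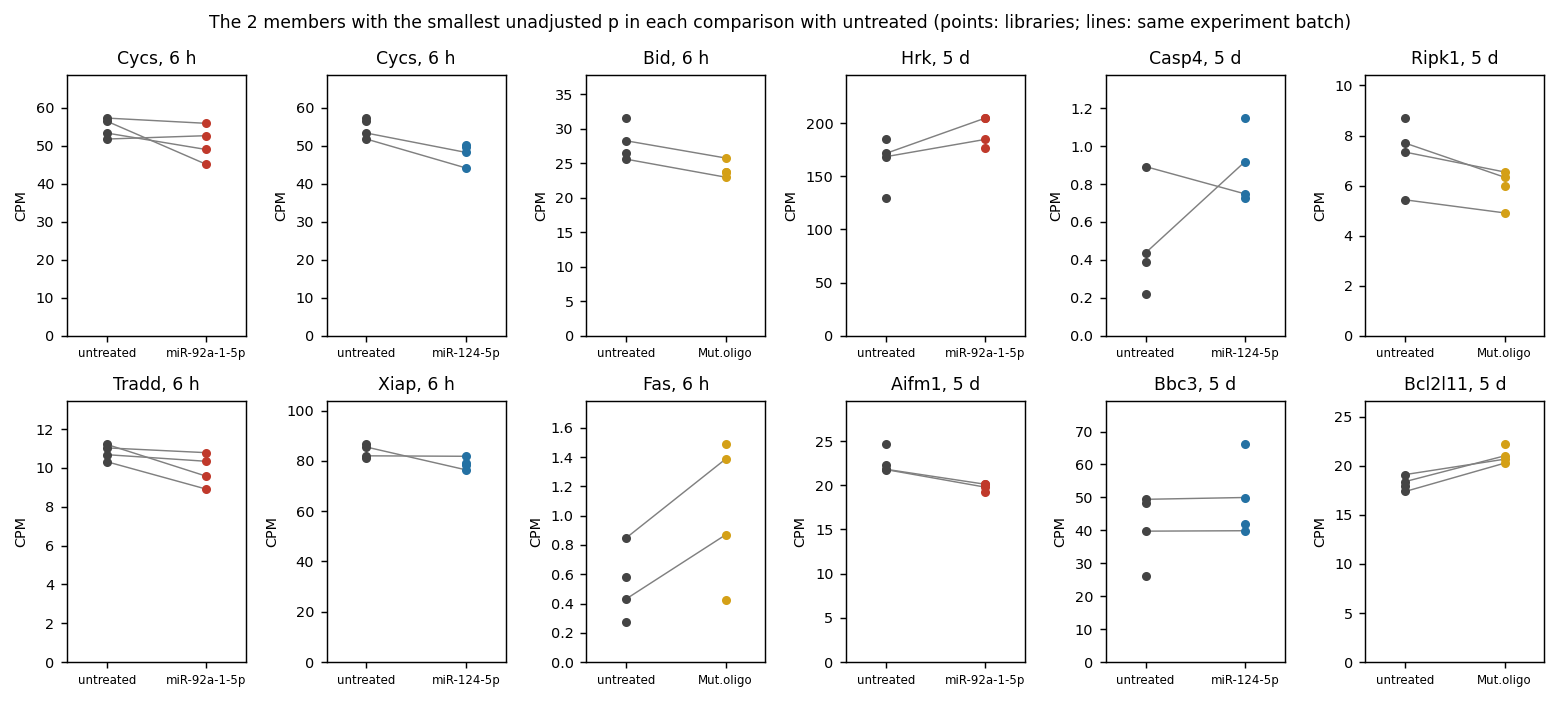
CPM (y axis, from 0) of the 2 genes with the smallest unadjusted p in each comparison with untreated, 1 panel per gene and comparison; points are libraries and grey lines join libraries of the same experiment batch. Hrk is higher and Aifm1 lower at the end of both lines with miR-92a-1-5p at 5 d, and the lines of Casp4 cross.

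On TMM-scaled log2 CPM, groups that do not overlap were found for 0 genes with miR-92a-1-5p, 3 with miR-124-5p (Cycs, Xiap, Ripk1), and 2 with Mut.oligo (Bid, Mdm2) at 6 h, and for 4 with miR-92a-1-5p (Hrk, Apaf1, Aifm1, Sesn2), 0 with miR-124-5p, and 1 with Mut.oligo (Bcl2l11) at 5 d. Over all tested genes the shares were 3.59%, 3.25%, and 4.23% at 6 h and 2.88%, 1.63%, and 2.03% at 5 d. Ripk1, Mdm2, Apaf1, and Sesn2 are named here after their values were seen.

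Differences between libraries of the same batch could be formed in 4 batches for miR-92a-1-5p at 6 h, in 3 for Mut.oligo at 5 d, and in 2 for each other comparison. With miR-92a-1-5p at 6 h, 8 of 39 genes (20.5%) moved the same way in all 4 batches, 2 higher and 6 lower, against 25.2% of all genes. With Mut.oligo at 5 d, 14 of 38 genes (36.8%) did so in all 3 batches, 11 higher and 3 lower, against 28.8% of all genes. In the comparisons with 2 batches, 51.3% to 63.2% of the genes had equal signs, where 53.1% to 57.4% of all genes did. Among pro-apoptotic and anti-apoptotic genes, the shares were 28.6% and 12.5% (miR-92a-1-5p, 6 h) and 42.9% and 25% (Mut.oligo, 5 d). In the 2-batch comparisons they were 81.0% and 37.5% (miR-124-5p) and 52.4% and 50% (Mut.oligo) at 6 h. At 5 d they were 76.2% and 37.5% (miR-92a-1-5p) and 61.9% and 50% (miR-124-5p). The 81.0% (all genes 53.1%) held 10 higher and 7 lower genes, and the 76.2% (all genes 55.9%) 6 higher and 10 lower. The median absolute within-batch difference of the genes was between 0.08 and 0.09 in log2 CPM in all 6 comparisons.

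No difference between the oligoribonucleotides passed in the 40 genes either, with 0 calls by edgeR and by DESeq2 in 6 comparisons, in which 0% of all tested genes were called by edgeR. The numbers at an unadjusted p under 0.05 were between 0 and 2 genes per comparison, and the share of all genes at that threshold is not given here. The smallest p-value belonged to Mlkl at 6 h, lower with miR-124-5p than with Mut.oligo by a log2 fold change of -1.87 ± 0.59 (edgeR, unadjusted p = 0.00567, adjusted p = 1.00), at levels of 0 to 0.245 CPM. Xiap was 0.12 ± 0.039 higher on the log2 scale with miR-92a-1-5p than with miR-124-5p at 6 h (edgeR, unadjusted p = 0.00849, adjusted p = 1.00).

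Whether an effect at 5 d differed from that at 6 h was tested by the interaction of treatment and time. For the 3 oligoribonucleotides, 0 of 39 genes were called by edgeR (0% of all genes). At an unadjusted p under 0.05 there were 0, 0, and 2 genes, again without the share of all genes. Bid had the smallest p-value, with a difference of 0.28 ± 0.11 for Mut.oligo (edgeR, unadjusted p = 0.0129, adjusted p = 0.857). With the batch as a covariate, the difference of Bid was 0.10 ± 0.10 (edgeR, unadjusted p = 0.354). Pmaip1, a BH3-only gene induced by p53, had differences of 0.51 ± 0.27, 0.50 ± 0.27, and 0.51 ± 0.27 for the 3 oligoribonucleotides, and these share the untreated libraries. With DESeq2 and the batch as a covariate, which called 0.465% of all genes, Pmaip1 passed for miR-92a-1-5p (0.55, adjusted p = 0.0211). In edgeR with the same covariate it did not (0.55 ± 0.14, unadjusted p = 0.00061, adjusted p = 0.103). Pmaip1 did not pass in that fit for the others either, with 0.45 ± 0.15 for miR-124-5p (edgeR, unadjusted p = 0.00746) and 0.44 ± 0.15 for Mut.oligo (edgeR, unadjusted p = 0.00637).

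In contrast to the treatments, many of the genes differed between 6 h and 5 d. In untreated neurons 9 of 39 tested genes were called higher at 5 d and 5 lower (edgeR), where 19.1% of all genes were called higher and 14.3% lower. The counts were 9 and 6 with miR-92a-1-5p (all genes 18.3% and 15.7%), 9 and 6 with miR-124-5p (19.5% and 14.7%), and 8 and 6 with Mut.oligo (18.7% and 15.4%). Without a minimum fold, 23 of 39 genes passed in untreated neurons, where 54.7% of all genes did. The counts of the 40 genes lie near these shares of all genes.

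In all 4 conditions, 7 genes were called higher (Fas, Hrk, Bak1, Bbc3, Sesn2, Casp4, Ccng1) and 5 lower (Tradd, Bok, Bmf, Casp2, Trp53), where 13.4% and 10.1% of all genes were. With an adjusted p under 0.05 and no minimum fold, 10 were higher and 10 lower in all 4 conditions, 11 in some, 8 in none, and 0 in opposite directions. The share of all genes that passed this rule in all 4 conditions was not counted. In untreated neurons alone, both directions together, 54.7% of all genes had an adjusted p under 0.05. This is no share for all 4 conditions, so the counts over the 4 conditions have none to be set against. Of the pro-apoptotic genes, 4 of 21 were called higher and 4 lower in untreated neurons, whereas 0 of the 8 anti-apoptotic genes were called in either direction. Bcl2l1, at the margin of the fold threshold, was called lower in libraries labelled miR-124-5p alone, and the difference between conditions did not pass (0 interactions called).

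**Figure D3:**
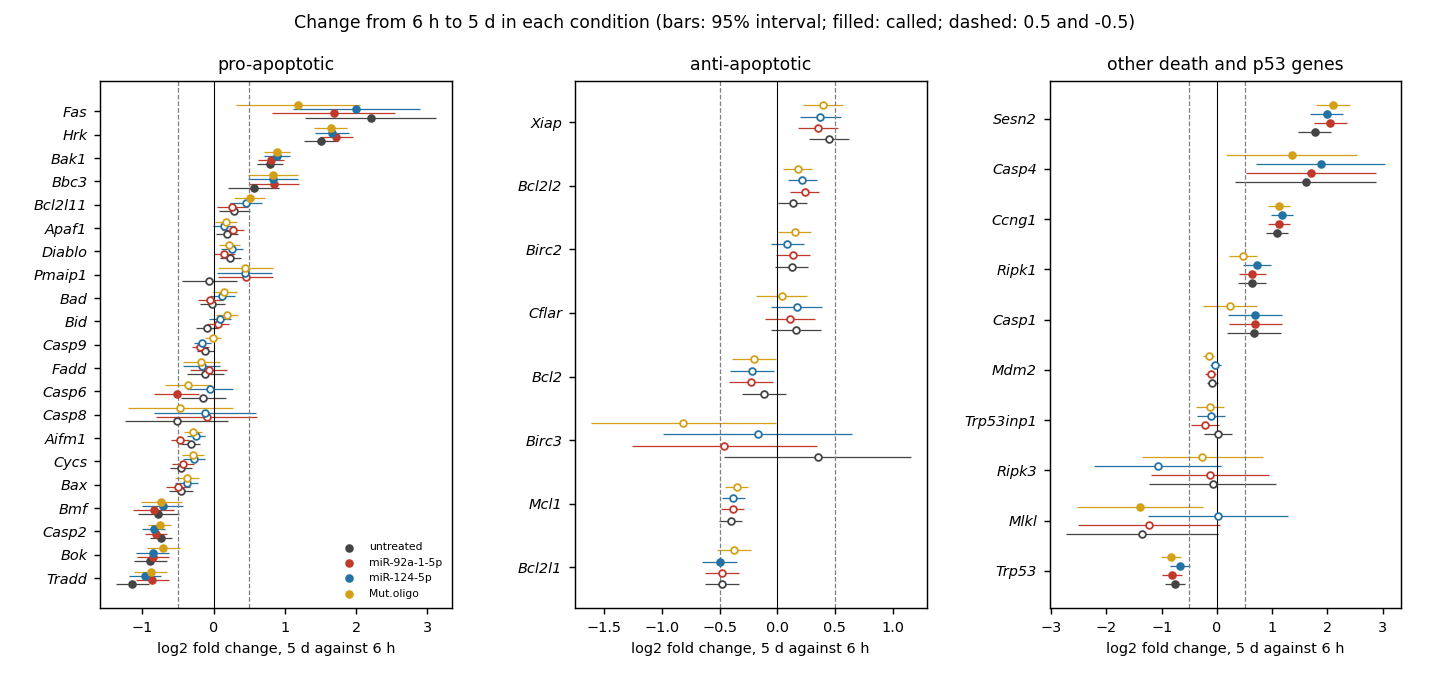
Log2 fold change from 6 h to 5 d (x axis) of each tested gene (y axis) in each of the 4 conditions (colours), with 95% intervals; filled points passed the threshold and dashed lines mark 0.5 and -0.5. In most genes the 4 conditions lie side by side, and the estimates of the anti-apoptotic genes lie at or between the dashed lines except that of Birc3 with Mut.oligo (-0.81).

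After Fas, the BH3-only gene Hrk had the largest called rise of the pro-apoptotic genes in untreated neurons. Untreated libraries held 58.2, 56.4, 64.1 and 48.3 CPM at 6 h and 168, 129.5, 185 and 171 CPM at 5 d, and over all 16 libraries of a time point Hrk was at 48.3 to 75.3 CPM (median 55.5) at 6 h and 129.5 to 205 CPM (median 184) at 5 d. The time points did not overlap, and the log2 fold change was 1.51 ± 0.12 in untreated neurons (edgeR, adjusted p = 4.67e-12) and 1.51 to 1.72 over the 4 conditions. Bbc3, a BH3-only gene under control of p53, was at 20.9 to 35.5 CPM (median 26.3) at 6 h and 26.2 to 66.1 CPM (median 47.8) at 5 d. It was called higher in all 4 conditions by 0.56 to 0.84 on the log2 scale, although 1 untreated 5 d library (26.2 CPM) remained at the 6 h level.

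Fas also rose, from a low level. Untreated libraries held 0.431, 0.584, 0.272 and 0.848 CPM at 6 h and 3.33, 0.965, 4.22 and 1.67 CPM at 5 d, a log2 fold change of 2.20 ± 0.45 (edgeR, adjusted p = 0.000122), with 1.18 to 2.20 over the 4 conditions. The untreated time points did not overlap, and the 5 d libraries spread from 0.965 to 4.22 CPM. Summed astrocyte markers were high in the same replicates 1 and 3, at 2087, 1094, 2044 and 1303 CPM in untreated replicates 1 to 4 at 5 d against 277 to 543 CPM at 6 h. Markers of microglia (18.96, 10.2, 18.8 and 9.70 CPM), the oligodendrocyte lineage, endothelium, and mural cells and fibroblasts were also highest in replicates 1 and 3. Those of dividing cells were not, and neuronal markers were lowest there (4549, 5403, 4126 and 4988 CPM). The part of these markers in the Fas level was not tested. The pore former Bak1 rose from 18.02 ± 2.31 to 31.4 ± 1.66 CPM (SD, n = 4) in untreated neurons, with log2 fold changes of 0.79 to 0.89 over the conditions.

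Bok, the third pore former of the family, moved the other way. It was at 35.6, 41.6, 41.8 and 36.8 CPM in untreated libraries at 6 h and 20.3, 24.6, 16.8 and 22.6 CPM at 5 d, with no overlap between 32.99 to 41.8 CPM (median 36.8) and 16.8 to 28.9 CPM (median 20.5) over 16 libraries each. Its log2 fold change was -0.89 ± 0.11 (edgeR, adjusted p = 9.49e-08). Bax, the partner of Bak1, was lower at 5 d by less than the fold threshold in all 4 conditions (-0.49 to -0.37, adjusted p at most 0.000294), so the 3 pore formers did not move together.

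Tradd had the largest fall of the pro-apoptotic genes. It was at 10.7, 11.03, 10.3 and 11.2 CPM untreated at 6 h and 5.19, 5.49, 3.85 and 5.16 CPM at 5 d, and every 5 d library of any condition lay below every 6 h library (3.85 to 6.74 CPM (median 5.26) against 8.91 to 11.9 CPM (median 10.6)). The log2 fold change was -1.14 ± 0.11 in untreated neurons (edgeR, adjusted p = 8.96e-10). Casp2, a caspase that responds to failed division and DNA damage, went from 38.2, 41.7, 41.3 and 39.6 CPM to 23.7, 20.9, 29.6 and 23.6 CPM, again without overlap (-0.73 ± 0.076, edgeR, adjusted p = 2.27e-09). Bmf, a BH3-only protein bound to the cytoskeleton, went from 7.16, 9.80, 8.09 and 7.47 CPM to 4.49, 3.86, 6.06 and 4.79 CPM (-0.78 ± 0.14, edgeR, adjusted p = 2.82e-05).

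The remaining pro-apoptotic genes had smaller log2 fold changes. Cycs (-0.46 to -0.28) and Aifm1 (-0.48 to -0.25) were lower at 5 d in all 4 conditions by less than the fold threshold, and Bcl2l11 (0.26 to 0.51) was higher in all 4 and past the threshold with Mut.oligo. Casp6, an executioner caspase, was called lower with miR-92a-1-5p (-0.52) and in no other condition. With no minimum fold, Apaf1 (0.14 to 0.27) and Diablo (0.15 to 0.26) were higher in 3 of 4 conditions, Pmaip1 (-0.06 to 0.45) in 2, and Bid (-0.10 to 0.18) in 1, and Casp9 (-0.19 to -0.01) was lower in 2. Bad and Fadd passed in no condition, and neither did Casp8, whose intervals are wide at 0.241 to 1.26 CPM.

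Of the anti-apoptotic genes, 7 of 8 had log2 fold changes between -0.50 and 0.45 in all 4 conditions, and Birc3 ran from -0.81 with Mut.oligo to 0.35 untreated, with wide intervals. Mcl1, which guards young neurons, was at 155 ± 5.50 CPM at 6 h and 118 ± 5.81 CPM at 5 d in untreated neurons (SD, n = 4), with log2 fold changes of -0.40 to -0.35 over the conditions and an adjusted p under 0.05 in all 4 (edgeR). Bcl2l1, the main BCL2 relative of mature neurons, was likewise lower in all 4 (-0.50 to -0.38), while Xiap was higher in all 4 (0.36 to 0.45). Bcl2 was lower in all 4 estimates (-0.22 to -0.11) with an adjusted p under 0.05 in 2 of them, and Bcl2l2 was higher in 3 of 4 (0.14 to 0.24). Birc2, Birc3, and Cflar passed in no condition.

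Ratios of counts within a library do not depend on scaling. They were not corrected for exon length, so they compare libraries and do not show which of 2 genes had the higher level. Bax counts per Bcl2 count were 1.88 ± 0.026 untreated, 1.74 ± 0.135 with miR-92a-1-5p, 1.80 ± 0.120 with miR-124-5p, and 1.89 ± 0.190 with Mut.oligo at 6 h (SD, n = 4). At 5 d the ratios were 1.51 ± 0.254, 1.46 ± 0.187, 1.62 ± 0.346, and 1.68 ± 0.265 in the same order. The 5 d groups overlapped each other, and the highest ratio (2.12) was that of replicate 1 labelled miR-124-5p. Bcl2l1 counts per Bax count were between 2.46 and 2.67 in the group means of both time points. Per kilobase of exon, the medians of Bax and Bcl2l1 were 33.4 and 29.6 CPM at 6 h and 23.9 and 21.3 CPM at 5 d.

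**Figure D4:**
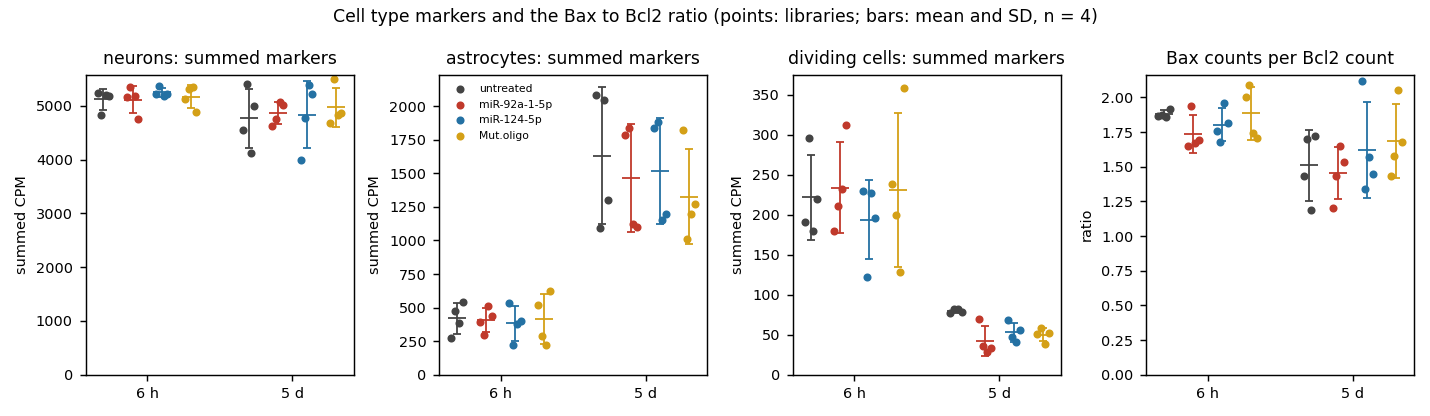
Summed CPM of markers of neurons, astrocytes, and dividing cells and the ratio of Bax to Bcl2 counts (y axes) by time and condition; points are libraries and bars the mean and SD of 4 libraries. Astrocyte markers are higher and dividing-cell markers lower at 5 d in all conditions, and the 5 d ratios spread more widely than those at 6 h.

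In the p53 pathway, the RNA of Trp53 itself was lower at 5 d, whereas Sesn2 and Ccng1, both among its known targets, were higher. Trp53 was at 51.5, 62.7, 53.5 and 54.7 CPM at 6 h and 34.1, 25.98, 41.1 and 32.4 CPM at 5 d in untreated libraries, without overlap (-0.75 ± 0.088, edgeR, adjusted p = 2.41e-08). Sesn2, which restrains growth signalling under stress, went from 22.1, 36.8, 25.3 and 28.8 CPM to 109.7, 67.9, 109 and 103 CPM, with untreated replicate 2 the lowest at 5 d (1.77 ± 0.15, edgeR, adjusted p = 2.31e-11). Ccng1, a cyclin that recruits a phosphatase to Mdm2, went from 64.7, 86.6, 65.2 and 76.5 CPM to 179.9, 128, 185 and 135 CPM (1.08 ± 0.097, edgeR, adjusted p = 1.31e-10). Over the 4 conditions the log2 fold changes were -0.83 to -0.67 for Trp53, 1.77 to 2.10 for Sesn2, and 1.08 to 1.17 for Ccng1. Mdm2 (-0.15 to -0.03) was never past the fold threshold, and Trp53inp1 passed in no condition.

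A match to the half-site bound by p53 (the 10-base consensus, which matches itself on the other strand) was sought in the RefSeq promoter windows of 250 bases before to 50 bases after the start of transcription. It occurred in 6 of 36 genes with a window (16.7%), namely Bax, Bmf, Birc2, Trp53, Mdm2, and Ccng1, against 2582 of 27025 genes (9.55%). The match of Ccng1, a p53 target called higher in all 4 conditions, and that of Bax are shown on the strand of the gene (build GRCm38.p6, match in capitals); they start 185 and 201 bases before the start of transcription.
Ccng1, chr11:40755452-40755481, minus strand: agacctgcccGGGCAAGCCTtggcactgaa
Bax, chr7:45467080-45467109, minus strand: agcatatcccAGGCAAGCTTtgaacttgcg
Of the 6 genes, Ccng1 was higher at 5 d and Bax, Bmf, and Trp53 were lower, while Birc2 passed in no condition and Mdm2 in 1. Hrk, Fas, Bbc3, and Sesn2 had no match in these windows, which says nothing of sites elsewhere. A half-site match is a description of the sequence and no evidence of binding by p53, and its part in the changes over time was not tested.

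The remaining genes are those of inflammatory and necroptotic death. Casp4 was at 0.199, 0.0649, 0.121 and 0.239 CPM at 6 h and 0.437, 0.221, 0.391 and 0.892 CPM at 5 d in untreated libraries, from 2 to 54 counts, and the time points overlapped. Its log2 fold change of 1.60 ± 0.63 (edgeR, adjusted p = 0.0309) lost the call without the libraries numbered 3 (1.64, adjusted p = 0.0979) or 4 (1.41, adjusted p = 0.126). Ripk1 was called higher in 3 of 4 conditions (0.48 to 0.72), and Casp1, which processes interleukin-1, in 3 of 4 (0.24 to 0.70). Ripk3 passed in no condition, and Mlkl was called lower with Mut.oligo alone, at levels near 3 counts. Markers of microglia, cells that express such genes, had summed levels of 6.96 to 17.1 CPM at 6 h and 9.45 to 24.4 CPM at 5 d, and their part in these changes was not tested.

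**Figure D5:**
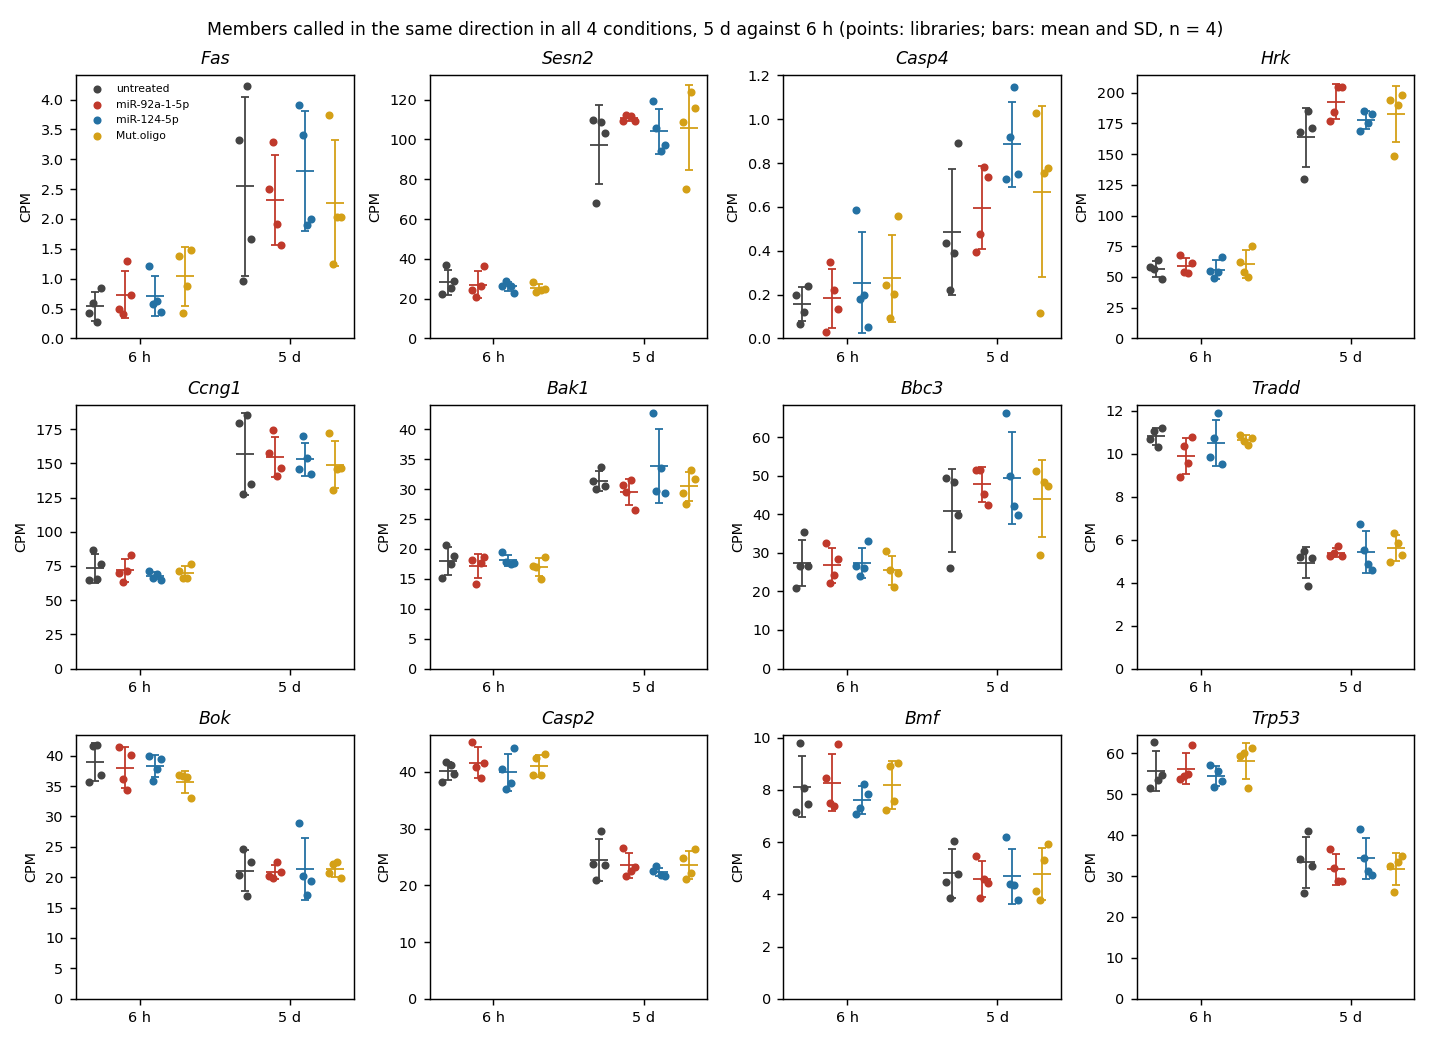
CPM (y axes, from 0) at 6 h and 5 d (x axes) of the 12 genes called in the same direction in all 4 conditions; points are libraries, coloured by condition, and bars the mean and SD of 4 libraries. The time points lie apart in Hrk, Sesn2, Ccng1, Bak1, Tradd, Bok, Casp2, Bmf, and Trp53 and overlap in Fas, Casp4, and Bbc3.

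Of 49 further genes of cell death and the p53 pathway, 48 were tested over time. This list was also chosen with earlier results of these data known, so its counts are a description and no test of the pathway. In untreated neurons, 11 of 23 p53 targets and regulators were called higher at 5 d and 1 lower, and 4 of 25 cell death genes were called higher and 7 lower (edgeR), where 19.1% of all genes were called higher and 14.3% lower. Cdkn1a (p21), the p53 target that halts the cell cycle, was at 46.7, 50.9, 48.04 and 45.1 CPM at 6 h and 76.1, 67.1, 81.01 and 72.8 CPM at 5 d in untreated libraries, called higher in all 4 (0.62 to 0.92). The near-identical genes Bcl2a1a, Bcl2a1b, and Bcl2a1d can share reads, and their values are uncertain.

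Against untreated, 0 of these genes were called by edgeR without covariate. Cdkn1a had -0.19 ± 0.083 with miR-92a-1-5p at 6 h (edgeR, unadjusted p = 0.0387, adjusted p = 0.999). With the batch as a covariate, Birc5 (survivin), a caspase inhibitor family member known for its role in cell division, was called lower with miR-92a-1-5p at 5 d (-0.94 ± 0.19, edgeR, adjusted p = 0.0491), where it was -0.75 ± 0.21 without it (unadjusted p = 0.00261, adjusted p = 0.637). Untreated libraries held 3.31, 3.52, 3.26 and 3.59 CPM of Birc5 and those with miR-92a-1-5p 2.44, 2.11, 1.67 and 1.85 CPM. Summed markers of dividing cells at 5 d were at 77.0 to 81.7 CPM untreated and at 28.8 to 70.1 CPM over the 3 oligoribonucleotides, without overlap, and their part in the Birc5 difference was not tested.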

How the data were processed

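RNA was measured in 32 libraries of cultured mouse cortical neurons, grouped by the labels into 4 conditions at 2 time points with 4 libraries each. Per the paper's methods, the authors made stranded mRNA libraries, sequenced single ends, mapped the reads to GRCm38 with STAR, and counted reverse-strand exon reads per gene with featureCounts. The deposited values are whole-number raw counts. The table holds no rows other than genes, and 0 of its columns were left out. Symbols, exon lengths, and UTRs came from a GENCODE annotation of the same build, and promoter and miRNA sequences from RefSeq.

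A gene entered a fit if 3 or more of its libraries held 5 or more counts, and was tested with edgeR 4.0.16 (R 4.3.3; TMM, quasi-likelihood test, no covariate), per time point over 16 libraries and, for time and interactions, over all 32, with adjustment over all genes tested. SE is the log2 fold change divided by the square root of F. DESeq2 1.42.0 was an alternative. CPM used library totals, and within-batch differences used TMM-scaled log2 CPM with a prior count of 2. On simulated counts with 200 changed genes and no batch differences, the test recovered 68.5% of them among 18755 genes (6 h) and 63.5% among 19333 (5 d). The genes simulated as raised had a median estimated log2 fold change of 1.01 (6 h) and 0.975 (5 d). Smaller changes were not simulated, so these shares do not apply to them.

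A further gene of the pathway list is counted but not reported here. The 40 genes, the lists, and the markers were chosen with earlier results of these data known. Values per library are given for the 2 genes with the smallest p in each comparison with untreated and the 5 with the largest called rise and fall over time in untreated neurons. Alternatives were other scalings, filters, a replicate or batch covariate, DESeq2, and leaving out libraries. Replicates within groups differed beyond sampling noise (chi-square per degree of freedom at least 7.10 over 48 pairs). In the fits without covariate, p-values measure the spread between these libraries, which includes differences between experiment batches, and libraries that share a batch are not paired.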

Additional observations from a re-analysis of the deposited data

Results flagged for a closer look

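In 15 of 320 groups of 4 libraries (40 genes), the highest or lowest library lay apart from the other 3 by more than 0.829 of the range of the group, where chance gives about 1 in 20 groups. In replicate 1 labelled miR-124-5p at 5 d, Bax was at 55.01 CPM (others 34.7 to 35.7), Bad at 37.3 (24.2 to 26.2), and Diablo at 44.7 (32.8 to 34.6), all pro-apoptotic and all high. Replicate 4 of Mut.oligo at 6 h was apart in 4 genes, with Bok at 32.99 CPM (others 36.5 to 36.8), Casp1 at 1.748 (0.973 to 1.10), Cflar at 14.88 (10.3 to 10.8), and Mdm2 at 51.43 (48.8 to 49.2).

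Low libraries at 5 d were untreated replicate 2 for Sesn2 (67.94 CPM, others 103 to 109.7) and Mut.oligo replicate 2 for Hrk (148.6, others 190 to 198). High ones were untreated replicate 1 for Bid (28.05 CPM, others 25.6 to 25.8) and Mut.oligo replicate 1 for Bcl2l2 (44.17, others 39.3 to 39.6). At 6 h, replicate 1 labelled miR-124-5p was high for Bak1 (19.39 CPM, others 17.5 to 17.8) and replicate 4 of miR-92a-1-5p for Trp53 (62.02, others 53.7 to 54.9). Bik, below the level of 3 counts, was at 0.053 CPM in untreated replicate 4 at 6 h (others 0.0302 to 0.0332) and at 0.017 CPM in replicate 2 labelled miR-124-5p at 5 d, where the others were listed at 0.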

How the results depend on the processing

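The 19 counts of called genes were recomputed under each alternative, giving 260 values within 1.5 times the reported count and 5 above that. For the 12 comparisons within a time point and the 3 interactions the reported count was 0. The reported fits called at most 0.00517% of all genes there, so agreement on 0 says little about stability. The time counts were 14, 15, 15, and 14 (untreated, then miR-92a-1-5p, then miR-124-5p, then Mut.oligo). Without a minimum fold they were 23, 27, 25, and 27 genes, since genes with small changes then pass, and DESeq2 with the experiment batch gave 1 gene (Pmaip1) for the interaction of miR-92a-1-5p with time (edgeR with the batch gave 0), where the cause was not tested. Leaving out one replicate number, the time counts ranged from 12 to 14, 14 to 16, 13 to 18, and 11 to 15. Leaving out replicate 1 labelled miR-124-5p or untreated replicate 2 at 5 d, chosen after seeing the data, gave 0 calls against untreated and 13 to 18 over time. Of 294 recomputed values of single genes, 292 kept their direction and side of the threshold, and the 2 exceptions were Casp4 over time without replicate 3 (1.64) or 4 (1.41). These values include uncalled genes, which stay uncalled where few genes are called, and the largest called changes over time. A filter of 10 counts in every library removed 4 of the 22 values of single genes.

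The replicate numbers do not stand for the experiment batches, although they partly went together at 5 d. Same-numbered libraries of different groups had correlations of their deviations from -0.54 to 0.59 at 6 h (median -0.19) and -0.50 to 0.80 at 5 d (median 0.26). Medians for unlike numbers were 0.02 and -0.15. Of 16 libraries each, 3 and 7 correlated best with one of their own number. For libraries of the same experiment batch the medians were 0.65 at 6 h and 0.52 at 5 d, against -0.17 and -0.19 for unlike batches. With the number as a replicate block, the counts were 0 in all comparisons within a time point and interactions, and 14, 15, 14, and 13 over time.

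Depth limits Bik and Mlkl, near 3 counts, and the low genes Fas, Casp8, Casp4, Birc3, and Ripk3, whose intervals against untreated reach past a log2 fold change of 0.5.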

Other observations

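Over time, 13.4% of all genes were called higher at 5 d in all 4 conditions and 10.1% lower (edgeR), and several further pathway genes, named after their values were seen, were among them. Bnip3, a mitochondrial gene induced by low oxygen, had log2 fold changes of 1.87 to 2.04 and was called higher in all 4, as was the stress gene Gadd45a (1.31 to 1.54). Parp1, a sensor of DNA breaks, was called lower in all 4 (-0.66 to -0.54).

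The 5 genes of the TNF receptor family among the further pathway genes did not move one way. Called higher in all 4 conditions were Eda2r, a receptor induced by p53 (1.78 to 2.10), Tnfrsf10b, the receptor of TRAIL (1.01 to 1.56), and Tnfrsf1a, the receptor of TNF (0.82 to 1.17). Tnfrsf21 stayed below the fold threshold in all 4 (0.21 to 0.38). The neurotrophin receptor Ngfr, which can signal death in developing neurons, was called lower in all 4 (-1.52 to -1.03).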
